A study of Mus musculus with 8 samples.

Results

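The expression of 10 genes of the vascular endothelium was followed in S0 cells, the least mature erythroid subset that is sorted from the mouse fetal liver. The 10 were 7 pan-endothelial genes (Kdr, Pecam1, Cdh5, Tek, Tie1, Emcn and Eng) and 3 genes of the sinusoidal endothelium (Stab2, Lyve1 and Flt4). They were chosen by name as textbook markers out of 52636 genes in the count table, with earlier results of these data known. All 10 of 10 were found in the table and all 10 passed the filter on low counts.

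S0 cells were taken from fetal livers at E12.5, in midgestation, of wild type embryos (WT) and from embryos that lack both Vps13a and Vps13c (DKO), 2 genes for lipid transport proteins that act where membranes of different organelles meet. Each genotype had 4 RNAseq libraries of polyA RNA, made by template switching from a small amount of RNA. In the DKO, Vps13a carried the tm1d allele, a constitutive deletion made in the whole body with a β-actin-Cre transgene, and Vps13c was deleted as well. All mice were kept on a C57BL/6J background, and the DKO embryos came from matings of Vps13a+/- mice that were Vps13c-/-. The WT embryos are labelled wild type and do not share the deletion of Vps13c. Matings of Vps13c-/- mice give no such embryos, so the WT and DKO embryos were not littermates. Genotype and litter cannot be told apart. Nothing in the labels says that each library came from its own embryo, so the p-values measure the spread between these libraries.

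Endothelial cells line the blood vessels. Kdr is the main signaling receptor for VEGF, Tek is the receptor for angiopoietins and Tie1 its partner, Eng is a co-receptor for ligands of the BMP and TGF-beta family, and Pecam1, Cdh5 and Emcn are surface proteins of the endothelial membrane and its junctions. In the fetal liver the sinusoids are the niche in which blood cells mature. Their endothelium takes up waste molecules with the scavenger receptor Stab2 and the hyaluronan receptor Lyve1, and carries Flt4, the receptor for VEGF-C. Several of these genes are not restricted to vessels, and Eng, Pecam1, Tek, Tie1 and Emcn are also expressed in blood stem and progenitor cells.

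The sort kept live cells and removed those with markers of T cells, B cells and myeloid cells. The S0 cells among the remainder were those negative for both CD71 and Ter119. No endothelial marker was among the antibodies, so endothelial cells were neither selected nor removed by a marker of their own. Whether the gate changed their share was not tested. Per the paper, most DKO cells were at the S0 stage, while a later stage was the most abundant in WT livers. The S0 gate thus took a different share of the lineage-negative cells in each genotype. In bulk libraries of this kind, a smaller number of cells of a type and less RNA per cell cannot be told apart.

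Library totals ran from 42114489 to 50886469 counts in WT and from 36981439 to 42587815 in DKO. Vps13a was lower in every DKO library (607 to 1039) than in any WT library (1825 to 2109, normalized counts), while Vps13c counts did not separate the genotypes. Xist, which is transcribed from the inactive X chromosome of females, had 18029 to 27043 normalized counts in 3 DKO libraries and at most 62.3 in DKO 3 and in the 4 WT libraries, so that sex was uneven between the genotypes. DKO 3 was the one DKO library of the same sex type as the WT libraries. It lay below all 4 WT libraries for Eng, Pecam1, Tie1 and Emcn. Every DKO library did so for these genes. DKO 3 does not differ from WT in sex type, but it is a single library. With this library alone, genotype and sex cannot be separated by a test. Normalized counts are counts scaled to a common library size by TMM. A level of 3 counts corresponds to between 2.58 and 3.66 normalized counts per library.

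The start regions of some of the genes are shown first, because endothelial genes are commonly driven by ETS factors such as Erg and Fli1, and the counts of both factors are given further on. RefSeq (GRCm38.p6) gave a promoter window for 7 of the 10 genes (Stab2, Flt4, Kdr, Tek, Tie1, Emcn and Eng). The 250 bases before the start of 3 genes are printed 5′ to 3′ in the direction of transcription, one gene that fell in DKO (Eng, chr2:32646345-32646594, plus strand), the one with the lowest DKO level relative to WT (Emcn, chr3:137340828-137341077, plus strand) and one that was close to its WT level (Kdr, chr5:75978456-75978705, minus strand). Capitals mark the ETS core letters GGAA, or TTCC where they lie on the other strand.
Eng: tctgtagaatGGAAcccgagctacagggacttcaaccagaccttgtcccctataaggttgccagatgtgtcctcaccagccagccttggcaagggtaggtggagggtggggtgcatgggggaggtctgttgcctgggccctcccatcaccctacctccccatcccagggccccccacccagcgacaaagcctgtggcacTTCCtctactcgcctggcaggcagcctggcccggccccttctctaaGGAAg
Emcn: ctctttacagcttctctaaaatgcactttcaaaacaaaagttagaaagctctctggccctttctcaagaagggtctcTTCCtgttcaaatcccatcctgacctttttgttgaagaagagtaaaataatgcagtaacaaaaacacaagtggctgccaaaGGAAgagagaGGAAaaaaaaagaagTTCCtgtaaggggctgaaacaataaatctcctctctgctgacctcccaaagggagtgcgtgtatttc
Kdr: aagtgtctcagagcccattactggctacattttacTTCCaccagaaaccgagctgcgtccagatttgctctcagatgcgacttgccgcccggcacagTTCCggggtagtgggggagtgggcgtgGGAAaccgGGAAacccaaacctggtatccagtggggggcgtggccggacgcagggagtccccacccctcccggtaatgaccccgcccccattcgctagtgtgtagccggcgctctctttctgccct

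The core letters were found 3 times in the window of Eng and 4 times each in those of Emcn and Kdr. The window of Tie1 held 7, that of Stab2 6, and those of Tek and Flt4 held 2 each. These letters are short and frequent, and 93.4% of the 32851 mouse promoter windows of the same 250 bases held them on either strand, with a median of 3 matches. Tie1 stood at percentile 96.2 of all windows for this count, and 6 of its 7 matches read GGAAG, which overlaps the core and was present in 64.1% of windows. The windows of Tie1, Flt4 and Stab2 lie wholly or in part inside the GENCODE gene, and those of Kdr and Emcn reach a few bases into it, so these stretches may be transcribed. None of the 7 windows held the GATA letters AGATAA (present in 3281 of the 32851 windows) or the TATA letters TATAAA (12.4%), while the E-box letters CANNTG (66.2%) were in 6 of them, all but Stab2. A match is a description of the letters and not evidence of binding, and the number of cores did not order the genes by their difference between the genotypes.

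The 10 genes covered a wide range of levels in WT S0 cells. Per length, in CPM (counts scaled to library size) per kilobase of merged exons, the WT mean was 11.8 for Eng, 7.32 for Tie1, 6.12 for Pecam1, 2.97 for Tek, 1.45 for Kdr, 0.890 for Lyve1, 0.584 for Emcn, 0.253 for Cdh5, 0.169 for Stab2 and 0.120 for Flt4 (n = 4 each). The ranges over the WT libraries did not overlap between Eng and Tie1, between Pecam1 and Tek or between Tek and Kdr, and the other neighbours in this order overlapped. The 4 highest genes are among those that blood progenitors can also express. Cdh5, which defines endothelial junctions, and the 3 sinusoidal genes stood at the low end. In DKO the first 6 places were the same on the per-length scale, with Eng first, Tie1 at 3.68, Pecam1 at 2.78, Tek at 1.74, Kdr at 1.28 and Lyve1 at 0.501. Emcn dropped from the seventh place to the ninth, at 0.123, and only Kdr and Lyve1 had ranges that did not overlap among DKO neighbours.

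A further 25 pan-endothelial genes were listed, and their levels also covered a wide range. Of these, 4 (Cldn5, Ptprb, Mmrn2 and Arhgef15) had too few counts to be tested, with means of at most 15.6 normalized counts in WT (Mmrn2) and 24.2 in DKO (Arhgef15). The other 21 were tested. Their WT means in normalized counts ran from 23.3 for Nos3 to 14318 for Cd34, with Plvap at 659, Esam at 893, S1pr1 at 993, Vwf at 1843 and Icam2 at 2723 between them. The labels call the cells erythroid precursors, and no library was sorted as endothelium.

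**Figure D1:**
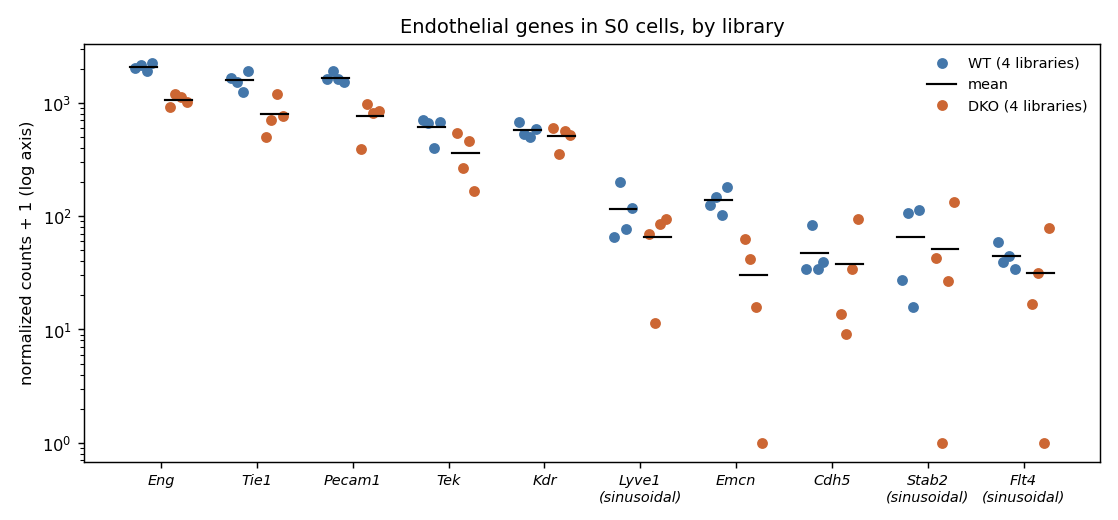
Normalized counts plus 1 (log axis) of the 10 endothelial genes in the 4 WT and 4 DKO libraries, ordered by WT level per length, with a bar at each mean; libraries at a count of 0 lie at 1. The 4 DKO points lie below the 4 WT points for Eng, Tie1, Pecam1 and Emcn, and the points overlap for the other 6 genes.

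The genotypes were compared by the quasi-likelihood test of edgeR over 17378 genes. The median log2 fold change (DKO over WT) of the 10 genes was -0.80, against 0.03 for all genes tested. All 10 had a log2 fold change below 0, as did 47.4% of all genes tested. Of the 10, 3 (Eng, Pecam1 and Tie1) fell at an adjusted p below 0.05, a level that 10.8% of all genes reached in this direction, and 0 of 10 rose, against 10.7% of all genes. Pecam1 was the 1 gene that also had a log2 fold change below -1, as 2.43% of all genes did, and 0 of 10 were above 1, against 6.19%. With a library left out, Tie1 joined Pecam1 past both thresholds without WT 2 or DKO 3, Eng without DKO 2, both without WT 3, and Emcn without DKO 4. Without DKO 1, Emcn was past both thresholds in place of Pecam1. In 4 of the 10 genes (Eng, Pecam1, Tie1 and Emcn) the highest DKO library was below the lowest WT library, as in 14.6% of all genes, and in 0 of 10 the order was the other way round, as in 13.5%.

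Eng (chromosome 2 from 32646595 to 32682669 of GRCm38) was the most abundant of the 10. Its normalized counts were 2032, 2161, 1922 and 2250 in WT 1 to 4 and 923, 1200, 1116 and 1025 in DKO 1 to 4. The highest DKO library was well below the lowest WT library, and the spread within each genotype was small. Eng fell from a mean of 2091 ± 144 to 1066 ± 119 (SD, n = 4 each), or a log2 fold change of -0.97 (SE, the standard error, 0.11, 95% interval -1.22 to -0.73, adjusted p = 0.00139 by edgeR). With each library left out in turn the log2 fold change stayed between -1.04 and -0.91, and the adjusted p stayed below 0.05. The exact permutation test gave p = 0.0286 (two-sided, the smallest that 4 against 4 allow). Eng shares 61 bases with Fpgs on the opposite strand, and whether reads were counted by strand is not given in the sources used here.

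Pecam1, the adhesion protein CD31 (chromosome 11 from 106654217 to 106750628), had 1635, 1896, 1627 and 1536 normalized counts in the WT libraries and 389, 985, 813 and 854 in DKO. The WT libraries lay close together, and DKO 1 was the lowest of the DKO libraries. Pecam1 fell from 1673 ± 155 to 760 ± 258 (SD, n = 4 each), or a log2 fold change of -1.14 (SE 0.25, 95% interval -1.69 to -0.59, adjusted p = 0.0126 by edgeR; exact permutation p = 0.0286). Without DKO 1 the log2 fold change was -0.92, and with any 1 library left out the adjusted p was at most 0.0441.

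Tie1 (chromosome 4 from 118471191 to 118490061) had 1657, 1525, 1246 and 1894 normalized counts in the WT libraries and 502, 710, 1190 and 772 in DKO. The genotypes were separated only narrowly, by WT 3 at 1246 and DKO 3 at 1190. Tie1 fell from 1580 ± 270 to 794 ± 289 (SD, n = 4 each), or a log2 fold change of -0.99 (SE 0.24, 95% interval -1.54 to -0.45, adjusted p = 0.0203 by edgeR; exact permutation p = 0.0286). Its call was lost when WT 1 or WT 4 was left out (adjusted p up to 0.0622).

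Emcn, the sialomucin endomucin (chromosome 3 from 137341067 to 137432185), had 126, 147, 101 and 181 normalized counts in the WT libraries and 62.0, 40.7, 14.7 and 0 in DKO. All DKO libraries were below all WT libraries (exact permutation p = 0.0286), and the DKO libraries differed widely among themselves. The WT mean was 139 ± 34.0 and the DKO mean 29.3 ± 27.5 (SD, n = 4 each), with a log2 fold change of -2.23 that had an SE of 0.91 and did not pass the test (adjusted p = 0.107 by edgeR). The adjusted p was below 0.05 in the fits without DKO 1 (log2 fold change -2.90) or without DKO 4 (-1.81), at its lowest 0.0457.

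For Tek, the angiopoietin receptor, the values were 703, 667, 401 and 684 normalized counts in the WT libraries and 546, 266, 461 and 166 in DKO. WT 3 stood apart at the low end of its group and lay inside the DKO range. The means were 614 ± 142 and 360 ± 174, the log2 fold change was -0.77 (SE 0.36, 95% interval -1.57 to 0.04), and the test was not passed (adjusted p = 0.154 by edgeR; exact permutation p = 0.0857).

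Kdr, the VEGF receptor, was the abundant gene closest to its WT level. It had 681, 526, 499 and 592 normalized counts in the WT libraries and 596, 350, 566 and 516 in DKO, and 3 of the 4 DKO libraries lay within the WT range. Its log2 fold change was -0.18 with a 95% interval of -0.63 to 0.27 (SE 0.20, adjusted p = 0.565 by edgeR), which does not reach the log2 fold change of -0.97 of Eng or -1.14 of Pecam1. The difference between the changes of these genes was not itself tested.

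Cdh5, the junction protein VE-cadherin, had 33.5, 81.8, 33.0 and 38.5 normalized counts in the WT libraries and 12.6, 8.14, 33.0 and 93.0 in DKO. DKO 4 had the highest count of all 8 libraries and DKO 2 the lowest, so the DKO values enclosed the WT values. The log2 fold change was -0.35 with a wide 95% interval of -2.02 to 1.33 (adjusted p = 0.781 by edgeR), and it was 0.071 without WT 2 and -1.39 without DKO 4. An antisense gene, Gm29682, overlaps Cdh5.

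**Figure D2:**
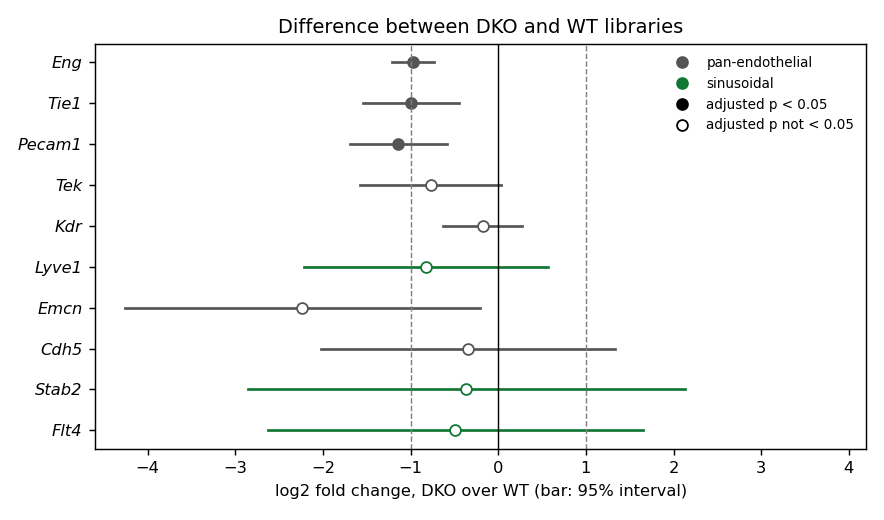
Log2 fold change of DKO over WT for each of the 10 genes (points), in the order of the WT level per length. Bars are 95% intervals derived from the edgeR test. Filled points have an adjusted p below 0.05, and dashed lines mark a log2 fold change of -1 and 1. The filled points are Eng, Tie1 and Pecam1, and the intervals widen toward the low genes, up to -2.85 to 2.13 for Stab2.

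The 3 sinusoidal genes were low in every library, and none of them passed the test. Stab2 (chromosome 10 from 86841198 to 87008025) had 26.2, 107, 14.8 and 112 normalized counts in the WT libraries and 42.0, 0, 25.6 and 134 in DKO. The WT libraries alone spanned a ratio of 7.58 between the highest and the lowest, and the genotypes overlapped throughout. The log2 fold change of Stab2 was -0.36 (SE 1.11, adjusted p = 0.848 by edgeR; exact permutation p = 0.6), and it was 0.019 without WT 4 and 0.045 without DKO 2. Stab2 overlaps the antisense genes Gm16271, Gm16268 and Gm16280 and 2 pseudogenes on the opposite strand, so its low counts are uncertain.

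Lyve1 (chromosome 7 from 110850607 to 110863239) had 63.9, 199, 76.4 and 117 normalized counts in the WT libraries and 68.3, 10.5, 84.2 and 94.0 in DKO. In DKO, 3 libraries lay within the WT range, and DKO 2 was far below it. Its log2 fold change was -0.83 with a 95% interval of -2.22 to 0.57 (adjusted p = 0.374 by edgeR; exact permutation p = 0.286). Flt4 (chromosome 11 from 49609263 to 49652739) had 58.6, 38.7, 43.4 and 33.2 in WT and 15.8, 30.2, 0 and 77.3 in DKO. The DKO values of Flt4 lay on both sides of the WT values, with a log2 fold change of -0.49 and a 95% interval of -2.63 to 1.65 (adjusted p = 0.755 by edgeR). These intervals hold both a log2 fold change of -1 and one of 0, so a change of the size seen for Eng could not be told from none for the sinusoidal genes. The spread between WT libraries (coefficient of variation 79.4% for Stab2, 53.4% for Lyve1 and 25.1% for Flt4) was larger than that of counting alone (11.7%, 8.82% and 14.5%). Without DKO 4 the log2 fold change was -1.51 for Stab2 and -1.48 for Flt4, and neither passed.

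The sinusoidal genes were set against the pan-endothelial genes. The median log2 fold change was -0.49 for the 3 sinusoidal genes and -0.97 for the 7 pan-endothelial genes, a difference of 0.48 that is a description without a test. The difference was -0.51 without DKO 4, and it was -0.02 when Stab2 alone was set against Kdr, Cdh5 and Tie1. In each library, the mean log2 level of the sinusoidal genes minus that of the pan-endothelial genes was -3.49, -2.65, -3.51 and -2.88 in WT and -2.72, -4.99, -4.44 and -0.82 in DKO. The DKO values lay on both sides of all WT values, with means of -3.13 ± 0.43 for WT and -3.24 ± 1.88 for DKO (SD, n = 4 each). On this mean scale DKO was lower by a difference of -0.11, the opposite sign to the difference of the medians, and both are small against the spread of the DKO libraries. The summed pan-endothelial counts (normalized) were 5829 to 7175 in WT against 3030 to 4195 in DKO and did not overlap. Most of this sum came from Eng, Pecam1 and Tie1, with WT means of 2091, 1673 and 1580 out of 6718. Kdr, Tek and Cdh5, of the same class, overlapped between the genotypes. The summed sinusoidal counts were 135 to 344 in WT and 40.7 to 305 in DKO and overlapped. The sinusoidal genes made up 2.12% to 4.68% of the summed counts of the 10 genes in WT and 1.13% to 8.18% in DKO.

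Stab2 and Lyve1, and in part Cdh5, varied together from library to library within each genotype, while Flt4, the remaining sinusoidal gene, did not follow them. Stab2 and Lyve1 were both highest among WT libraries in WT 2 and WT 4, and both were lowest of all libraries in DKO 2. DKO 4 had the highest Stab2 and Cdh5 counts of all 8. A late erythroid gene, Slc4a1, which encodes the anion exchanger of the red cell membrane, had 985, 1515, 308 and 1422 normalized counts in the WT libraries and 799, 10.5, 811 and 1465 in DKO. Slc4a1 was picked after its values were seen, and it too was highest in WT 2, WT 4 and DKO 4 and lowest in DKO 2. The part of more mature red cells in the counts of Stab2 and Lyve1 was not tested.

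**Figure D3:**
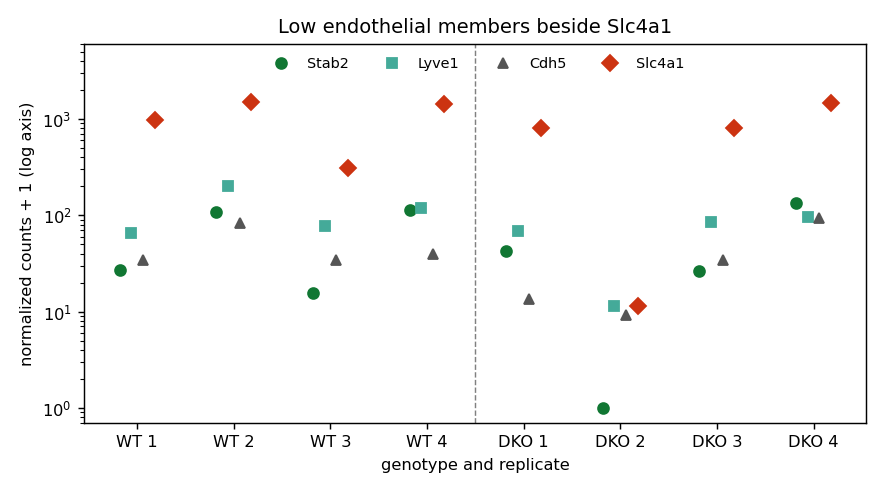
Normalized counts plus 1 (log axis) of Stab2, Lyve1, Cdh5 and the late erythroid gene Slc4a1 in each WT and DKO library, with a dashed line between the genotypes; a count of 0 lies at 1. All 4 genes are at their lowest in DKO 2, and Stab2 and Slc4a1 are both higher in WT 2, WT 4 and DKO 4 than in WT 3.

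The ligands and pathway partners of these receptors were taken from lists. Each list's counts are to be read against the 10.7% of all genes tested that rose and the 10.8% that fell. Of 8 genes for VEGF ligands, Flt1 and neuropilin co-receptors, 3 rose and 0 fell. Vegfa, the ligand of Kdr, had 129, 117, 208 and 184 normalized counts in the WT libraries and 636, 537, 369 and 621 in DKO. All DKO libraries were above all WT libraries, and Vegfa rose from 159 ± 43.7 to 541 ± 122 (SD, n = 4 each), or a log2 fold change of 1.76 (SE 0.27, adjusted p = 0.00395 by edgeR). The neuropilin Nrp2 rose with a log2 fold change of 2.69 (adjusted p = 0.0303 by edgeR), and the placental growth factor gene Pgf with one of 3.36 (adjusted p = 0.0362 by edgeR). Pgf overlapped between the genotypes, with 352, 41.8, 42.7 and 471 normalized counts in DKO 1 to 4 and up to 46.9 in WT. Vegfb went from 460 ± 109 to 685 ± 36.4 and missed the threshold (adjusted p = 0.0519 by edgeR). Among the 3 angiopoietins, Angpt1, which activates Tek, had 2808, 2839, 2217 and 3091 normalized counts in the WT libraries and 809, 1491, 1632 and 1219 in DKO. Angpt1 fell with a log2 fold change of -1.09 (SE 0.20, adjusted p = 0.00782 by edgeR), and neither Angpt2 nor Angpt4 passed the test. Blood stem and progenitor cells are a known source of Angpt1 in the fetal liver.

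In the pathway in which endoglin acts, 14 genes were tested, of which 1 fell and 3 rose (10.8% and 10.7% of all genes). Id1 and Id3, which BMP signals are known to induce, had log2 fold changes of 0.86 (adjusted p = 0.0044 by edgeR) and 1.80 (adjusted p = 0.0124 by edgeR), and Smad6, an inhibitor of the same pathway, had one of 0.81 (adjusted p = 0.0401 by edgeR). The co-receptor Tgfbr3 fell by 0.42 on the log2 scale (adjusted p = 0.0246 by edgeR). Id2 had a log2 fold change of 0.59 and did not pass (adjusted p = 0.218 by edgeR). Over the list the median was 0.70 on the log2 scale, while Eng itself was at -0.97.

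Of the 21 further pan-endothelial genes tested, 5 fell and 1 rose (10.8% and 10.7% of all genes), with a median log2 fold change of -0.52. Calcrl, a receptor for adrenomedullin, fell from 1954 ± 414 to 768 ± 276 normalized counts (log2 fold change -1.35, SE 0.26, adjusted p = 0.00914 by edgeR). Cd93 fell with a log2 fold change of -1.93 (adjusted p = 0.0131 by edgeR) and Adgrl4 with one of -2.47 (adjusted p = 0.0147 by edgeR). Thsd1 and Cd34 were the other two that fell. Shank3 rose with a log2 fold change of 1.08 (adjusted p = 0.0317 by edgeR). Egfl7, with 9801 ± 375 normalized counts in WT, had a log2 fold change of 0.06 (adjusted p = 0.836 by edgeR). Plvap, Vwf and Nos3 did not pass the test. Calcrl, Cd93, Adgrl4 and Egfl7 are expressed in blood progenitors as well as in vessels.

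The 14 other sinusoidal genes tested had a median log2 fold change of 0.75. Of these, 2 rose and 1 fell, shares near those of all genes (10.7% and 10.8%), and the difference from the 3 sinusoidal genes above was not tested. Gata4, a transcription factor of sinusoidal endothelium and also of the stromal cells of the liver, had 50.3, 33.6, 131 and 67.3 normalized counts in the WT libraries and 422, 445, 878 and 528 in DKO. The DKO libraries all exceeded the WT libraries, and Gata4 rose with a log2 fold change of 3.01 (SE 0.45, adjusted p = 0.00358 by edgeR). Rspo3, a secreted enhancer of WNT signals, rose with a log2 fold change of 3.13 (adjusted p = 0.00409 by edgeR). Fcgr2b, an Fc receptor of sinusoidal and blood cells, fell by 1.25 on the log2 scale (adjusted p = 0.036 by edgeR). Gpr182 had a log2 fold change of -0.15 (adjusted p = 0.833 by edgeR).

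Transcription factors of the endothelium were mixed. Of 18 tested genes out of 21 listed, 5 fell and 2 rose (10.8% and 10.7% of all genes), with a median log2 fold change of -0.10. Erg, an ETS factor of endothelium and of blood stem cells, had 705, 519, 587 and 976 normalized counts in the WT libraries and 89.3, 252, 184 and 205 in DKO. The groups did not overlap, and Erg fell with a log2 fold change of -1.93 (SE 0.33, adjusted p = 0.00563 by edgeR). The homeobox factor Hhex fell by 0.98 (adjusted p = 0.00416 by edgeR) and Mef2c by 0.95 on the log2 scale (adjusted p = 0.00732 by edgeR). The ETS factor Fli1 fell from 7537 ± 865 to 4965 ± 684 normalized counts (adjusted p = 0.00976 by edgeR), and Sox18 was the fifth. Lmo2 and Klf4 rose, with log2 fold changes of 0.58 (adjusted p = 0.00963 by edgeR) and 1.47 (adjusted p = 0.0318 by edgeR).

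Genes of arteries and of veins and lymphatic vessels were listed as well, and their difference from the pan-endothelial genes was not tested. In the arterial list 10 of 12 genes were tested, 3 rose and 1 fell (10.7% and 10.8% of all genes). Unc5b rose with a log2 fold change of 2.21 (adjusted p = 0.0088 by edgeR), Efnb2 with one of 4.10 (adjusted p = 0.0373 by edgeR) and Hey1 with one of 3.36 (adjusted p = 0.0462 by edgeR), all from WT means below 50 normalized counts, while Notch1 fell by 0.87 on the log2 scale (adjusted p = 0.0251 by edgeR). In the venous and lymphatic list 2 of 6 tested genes rose, Nr2f2 with a log2 fold change of 3.06 (adjusted p = 0.0142 by edgeR) and Pdpn with one of 3.73 (adjusted p = 0.0496 by edgeR). Pdpn overlapped between the genotypes, with 341, 40.7, 409 and 32.4 normalized counts in DKO 1 to 4 and up to 38.7 in WT. Nr2f2 and Pdpn are also stromal genes. Prox1, of lymphatic endothelium and hepatoblasts, had a log2 fold change of -0.08 (adjusted p = 0.864 by edgeR).

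Of the genes named from these lists, the calls of Nrp2, Pgf, Smad6, Tgfbr3, Shank3, Fcgr2b, Klf4, Notch1, Efnb2, Hey1, Nr2f2 and Pdpn, and of Adgre1 named below, were lost when either WT 1 or WT 4 was left out, and some of them without other libraries too (adjusted p up to 0.133). Without DKO 1 the log2 fold change was 2.43 for Efnb2, 1.76 for Nr2f2, 1.79 for Nrp2 and 2.50 for Rspo3, without WT 3 it was 5.19 for Hey1 and 4.04 for Pgf, without DKO 4 it was 2.73 for Pgf, and without WT 1 it was 4.69 for Pdpn. The calls of Vegfa, Angpt1, Id1, Id3, Calcrl, Cd93, Adgrl4, Gata4, Rspo3, Erg, Hhex, Mef2c, Lmo2 and Unc5b were kept in all 8 fits that left out 1 library.

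**Figure D4:**
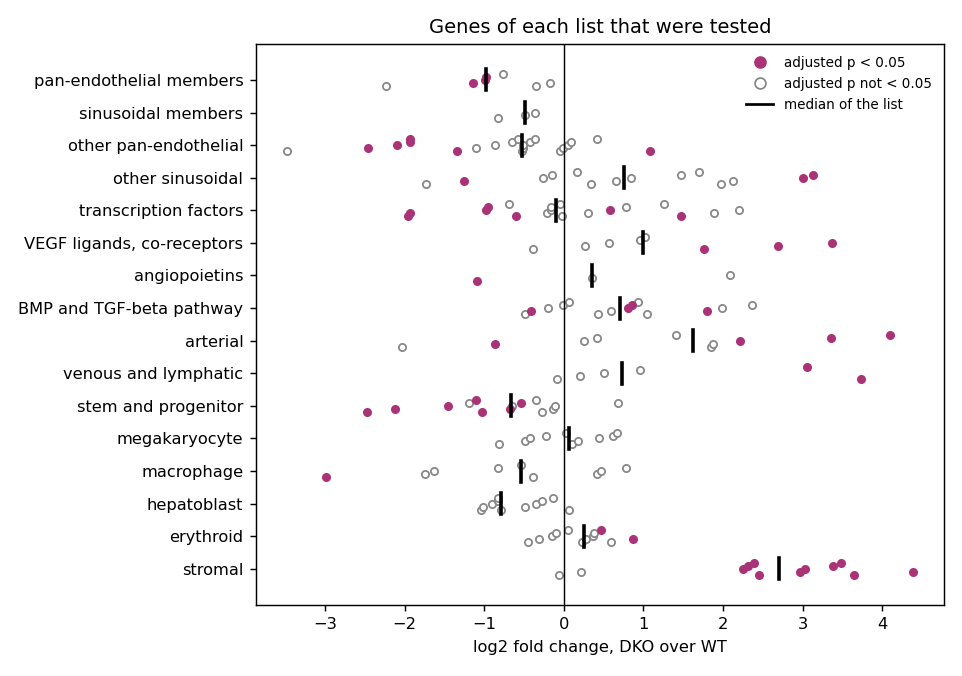
Log2 fold change of DKO over WT for each tested gene of the endothelial, pathway and cell type lists (points, filled where the adjusted p was below 0.05), with a bar at the median of each list. The medians of the pan-endothelial members (-0.97), the hepatoblast genes (-0.79) and the stem and progenitor genes (-0.66) lie to the left of 0, and that of the stromal genes (2.71) to the right.

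Markers of other cells were counted in the same way, against 10.8% of all genes that fell and 10.7% that rose. Of 15 stem and progenitor genes 14 were tested and 7 fell, among them Kit and Cd48, and 0 rose. Their summed level was 1020 to 1234 CPM in WT and 615 to 773 in DKO, without overlap, as was the summed level of the 7 pan-endothelial genes, at 133 to 163 and 69.0 to 95.5 CPM. Of the macrophage list 9 of 12 genes were tested and Adgre1 fell, with summed levels of 115 to 172 in WT and 32.6 to 103 in DKO, and with Cd163 and Vsig4 at 0 in all libraries. The stromal list had 10 of 12 genes higher in DKO and 0 lower, with summed levels of 111 to 191 in WT and 382 to 1150 in DKO. The 11 hepatoblast genes gave 0 calls in either direction. Of these, 10 of 11 had a log2 fold change below 0, against 47.4% of all genes, and the median was -0.79. In 4 of them all DKO libraries were below all WT libraries, as in 14.6% of all genes. Their summed level was 16013 to 21737 in WT and 4758 to 18410 in DKO. The 10 megakaryocyte genes also gave 0 calls, with 1364 to 1562 in WT and 980 to 2900 in DKO. Of 12 erythroid genes, 2 rose, Epor among them, and 0 fell, with summed levels of 1146 to 2087 in WT and 893 to 2603 in DKO. The part of these cell types in the fall of Eng, Pecam1 and Tie1 was not tested.

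Pairs of genes were compared within genotype, on log2 levels after subtracting each genotype's mean, over the same 8 libraries, as a description. The closest pair was Stab2 and Lyve1 (Pearson's r = 0.94), both low genes whose counts share the library. Cdh5 followed Stab2 and Lyve1 less closely (r = 0.77 for each) and ran opposite to Emcn (r = -0.85). Pecam1 with Eng and Tek with Emcn were at r = 0.74 each.

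Genes outside the list were ranked by how closely they followed each class over the 8 libraries, as Pearson's r of log2 levels among genes with a mean of at least 100 normalized counts. The profile of the 7 pan-endothelial genes was most like those of Cdc42 (r = 0.995), Mc5r (r = 0.994), Fem1c (r = 0.991), Rcsd1 (r = 0.989) and Atp6v0a2 (r = 0.988), and all 5 were lower in DKO at an adjusted p below 0.05. The profile of the 3 sinusoidal genes was most like those of Exoc4 (r = 0.969), Zfp758 (r = 0.950), Dnah12 (r = 0.946), Narf (r = 0.938) and 2610035D17Rik (r = 0.935), and 0 of these 5 passed the test between the genotypes. No gene of the endothelial lists was among these 10, and the best matches out of so many genes over 8 libraries are high by selection. Whether they were called also follows in part from the selection. The pan-endothelial profile did not overlap between the genotypes (8.75 to 9.22 in WT, 7.47 to 8.15 in DKO), and the sinusoidal profile did. Of all genes tested, 10.8% were lower in DKO at this level.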

How the data were processed

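RNAseq of S0 cells from E12.5 fetal livers was used, 4 WT and 4 DKO libraries grouped and numbered by their labels. Per the labels, the processing tools were fastp 0.21.0, HISAT2 2.2.1 and StringTie 1.3.3b with the mm10 build. The authors deposited gene counts as whole numbers from StringTie's prepDE script, neither normalized nor pooled. Since prepDE derives counts from coverage and a set read length, the totals need not equal the reads. The strand setting is not given in the sources used here.

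Of 52636 identifiers, 52489 matched GENCODE vM21 (GRCm38) without the version. In R 4.3.3, edgeR 4.0.16 was run on the whole table with filterByExpr, TMM, the quasi-likelihood test (robust) and no covariate, and p-values were adjusted by Benjamini-Hochberg over 17378 genes. A gene is said to rise or fall at an adjusted p under 0.05. The study's threshold adds a log2 fold change beyond 1 in either direction. For each of the 10 genes the log2 levels of the normalized counts were also permuted exactly (two-sided, 70 arrangements). Log2 levels per library used a pseudocount of 1 normalized count. The steps were tested on simulated data.

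The genes named are the 10, and from each other list at most 3 per direction with the smallest p and the one with the highest normalized counts over all 8 libraries. Thsd1, Cd34, Fli1, Sox18, Slc4a1, the untested endothelial genes and Plvap, Esam, S1pr1, Icam2, Vwf and Nos3 were named after their values were seen. Some genes that the rule names are not reported here. The 10 genes, the lists and the alternatives were chosen with earlier results of these data known. The alternatives were each library left out, a replicate block, DESeq2 1.42.0, scaling by upper quartile or by library size alone, the low-count filter dropped or raised to 10 counts per library throughout, division of the counts by 2, no fold threshold and another split of the classes. No library was a second copy of another. For all 10 genes the spread between WT libraries was larger than the counting error at these depths.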

Additional observations from a re-analysis of the deposited data

Results flagged for a closer look

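In 6 of 118 groups of 4 libraries examined, 1 library stood apart from the other 3 by Dixon's criterion at the 95% level. Chance gives about 1 in 20 such groups. Of these, 2 were among the 20 groups of the 10 endothelial genes. Cdh5 had 81.8 normalized counts in WT 2, against 33.0 to 38.5 in the other WT libraries. Tek had 401 in WT 3, against 667 to 703. Another 3 lay in DKO 1, where Rspo3 had 829 (219 to 292 in the other DKO libraries), Efnb2 had 1058 (39.5 to 152) and Nr2f2 had 7263 (992 to 1157). Prox1 had 1952 in WT 4, against 1370 to 1460 in the other WT libraries.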

How the results depend on the processing

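Over 145 pairs of one of the 10 genes and one alternative, 136 kept their direction and their side of the threshold, 3 lost the call (Tie1 with the replicate block and without WT 1 or WT 4), 3 gained it (Emcn with DESeq2 and without DKO 1 or DKO 4) and 3 changed sign (Cdh5, -1.39 to 0.071 over the fits without 1 library, and Stab2, -1.51 to 0.045, at 2 of them). Eng and Pecam1 fell under every alternative tried. The number of the 10 past both thresholds, 1, became 3 with no fold threshold or with DESeq2, 2 under library size alone or when no gene was filtered, and 1 to 3 with a library left out. Over all genes, 1076 higher and 423 lower became 1867 and 1878 with no fold threshold, DESeq2 gave 1658 higher, and leaving out a library gave 566 to 1148 higher and 243 to 521 lower. Nothing in the labels says what libraries of the same replicate number share. Their correlations, after subtracting each genotype's mean, were -0.089, 0.043, -0.021 and -0.0075. Those of the other pairs ran from -0.11 to 0.11, and a shared day or batch was not tested. With the replicate block 613 genes were higher and 343 lower, and the adjusted p of Tie1 was 0.0519 by edgeR. Upper-quartile scaling moved the median of all genes by 0.11 on the log2 scale. DESeq2 also moved it by 0.11, on 30390 genes, and dropping the filter, on the same number, by 0.096. Under upper-quartile scaling Prox1 was at 0.035 and Exoc4 at 0.0062, both reversed. With a library left out, the sign also changed for Prox1 (-0.24 to 0.16), Gpr182 (-0.40 to 0.16), Egfl7 (-0.073 to 0.21) and Hba-a1 (-0.054 to 0.76). The causes were not tested. With at least 10 counts in every library the sinusoidal genes gave no value for the comparison of the classes. The intervals of the sinusoidal genes and Cdh5 include both 0 and a log2 fold change of -1, and their spread between WT libraries exceeds counting error.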

Other observations

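The endothelial transcription factors Sox7, Sox17 and Foxc2 were too low to be tested. Foxc2 was at 0 in all WT libraries and had 46.2, 9.30, 87.9 and 39.7 normalized counts in DKO 1 to 4, without overlap. The arterial gene Dll4, also untested, had 4.34 to 33.6 in WT and 0 in all DKO libraries. Sox7 was at 0 in all WT libraries and had a mean of 20.5 ± 25.5 normalized counts in DKO, and Sox17 had 9.17 ± 10.1 in WT against 77.2 ± 108 in DKO libraries (SD, n = 4 each), with overlapping libraries in both. Robo4, a receptor of vessels and of blood stem cells, had 105 ± 28.1 in WT and 9.19 ± 18.4 in DKO without overlap and did not pass the test (adjusted p = 0.0907 by edgeR). Clec4g, a lectin of the sinusoids, had 92.4 ± 19.7 in WT and 27.8 ± 28.2 in DKO, also without overlap and without a call (adjusted p = 0.221 by edgeR). These genes were picked after their values were seen.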
